A study of Mus musculus with 8 samples.

Results

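The genes described here are 10 members of the p53 pathway and its stress targets: Trp53, Mdm2, Ccng1, Btg2, Phlda3, Trp53inp1, Sesn2, Gdf15, Ckap2 and Gtse1. They were found through the RefSeq transcript that the array assigns to each probe, which gave 17 probes for the 10 genes out of 18316 genes named on the array. All 10 entered the tests, which covered the 14142 genes whose probe exceeded background clearly on 2 or more arrays. On the brightest probe, which stood for each gene, 8 genes were above background on all 8 arrays, while Ckap2 and Gtse1 were above it on 5.

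The livers came from mice of the strain labelled 129/SV/B6, either Mxcre+ (Survivin deleted, per the series design) or Mxcre- (Survivin wild type). Livers of both genotypes were taken at 0, 24, 36 and 48 h after partial hepatectomy (PHx), the removal of part of the liver, after which the remaining hepatocytes divide. All 8 groups had also been irradiated, given a bone marrow transplant (BMT) 2 months earlier and treated with poly(IC), an interferon inducer that switches on Mxcre, 1 week before. Mxcre is a Cre recombinase under an interferon-responsive promoter, which is known to act in hepatocytes, other liver cells and blood-forming cells. Which cells carried the deletion here was not tested. The labels give no age, leave sex unassigned among the samples, and are silent on whether RNA of 1 animal or of several was used for an array. Times are those of the sample titles.

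With 1 array a group there were no replicate livers, and a p-value measures how steady a difference was over times or between genotypes. Survivin (Birc5), the targeted gene, had levels of -2.80, -3.49, -1.58 and -1.20 at 0, 24, 36 and 48 h in Mxcre+ livers, against -0.25, -0.55, 1.53 and 5.03 in Mxcre- livers, lower in Mxcre+ at all 4 times. All levels are on the log2 scale, with 0 at the 75th percentile of each array. Hepatocyte markers (5 of 6 on the array, all above background) averaged 6.17 to 6.53 on the 8 arrays. Of 4 Y-linked genes, 3 or 4 were above background on both 24 h arrays and on the Mxcre- arrays of 36 and 48 h, and 0 on the other 4 arrays. The difference of 24 h from 0 h, and that of Mxcre+ from Mxcre- at 36 and 48 h, therefore cannot be told apart from this signal. In Mxcre- livers the 36 and 48 h arrays also differ from the 0 h array in this signal. For that genotype, these differences from 0 h cannot be told apart from it either. The arrays of 0 and 24 h lay on slide 1 and those of 36 and 48 h on slide 2, so slide and time cannot be told apart where 36 or 48 h is set against 0 h.

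p53, encoded by Trp53, is a transcription factor that is stabilised after DNA damage and other stress. It turns on genes that halt the cell cycle, repair DNA or lead to cell death, and it also turns on Mdm2, the ubiquitin ligase that marks p53 for breakdown. Because p53 is controlled largely at the level of the protein, its own transcript need not change when its targets do. In regenerating liver, hepatocytes leave quiescence together, and p53 targets, immediate early genes and mitotic genes are all known to vary over the course of regeneration.

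Against 0 h, the genes above background on all arrays rose in part: 2 of the 8 (Btg2 and Gdf15) passed the test upwards at 24 h, 3 (Ccng1, Btg2 and Gdf15) at 36 h and 5 (Mdm2, Ccng1, Btg2, Phlda3 and Gdf15) at 48 h. Sesn2 fell at 36 h, and Trp53 and Trp53inp1 passed the test at no time. The mitotic genes Ckap2 and Gtse1 rose at 36 and 48 h, but both probes used were below background at 0 h and entered the tests through their later arrays. Over all genes tested, 4.43% were higher and 5.26% lower at 24 h, 7.83% higher and 8.64% lower at 36 h, and 8.12% higher and 9.6% lower at 48 h. The call was an adjusted p (Benjamini-Hochberg over all genes) of 0.05 in limma. The median difference of the 8 genes was 0.53, 0.67 and 1.09 on the log2 scale at 24, 36 and 48 h, beside -0.03, -0.06 and -0.08 over all genes tested. No gene of the 10 passed the test between genotypes. Of all genes tested 0% did, and Birc5 did not pass either.

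**Figure D1:**
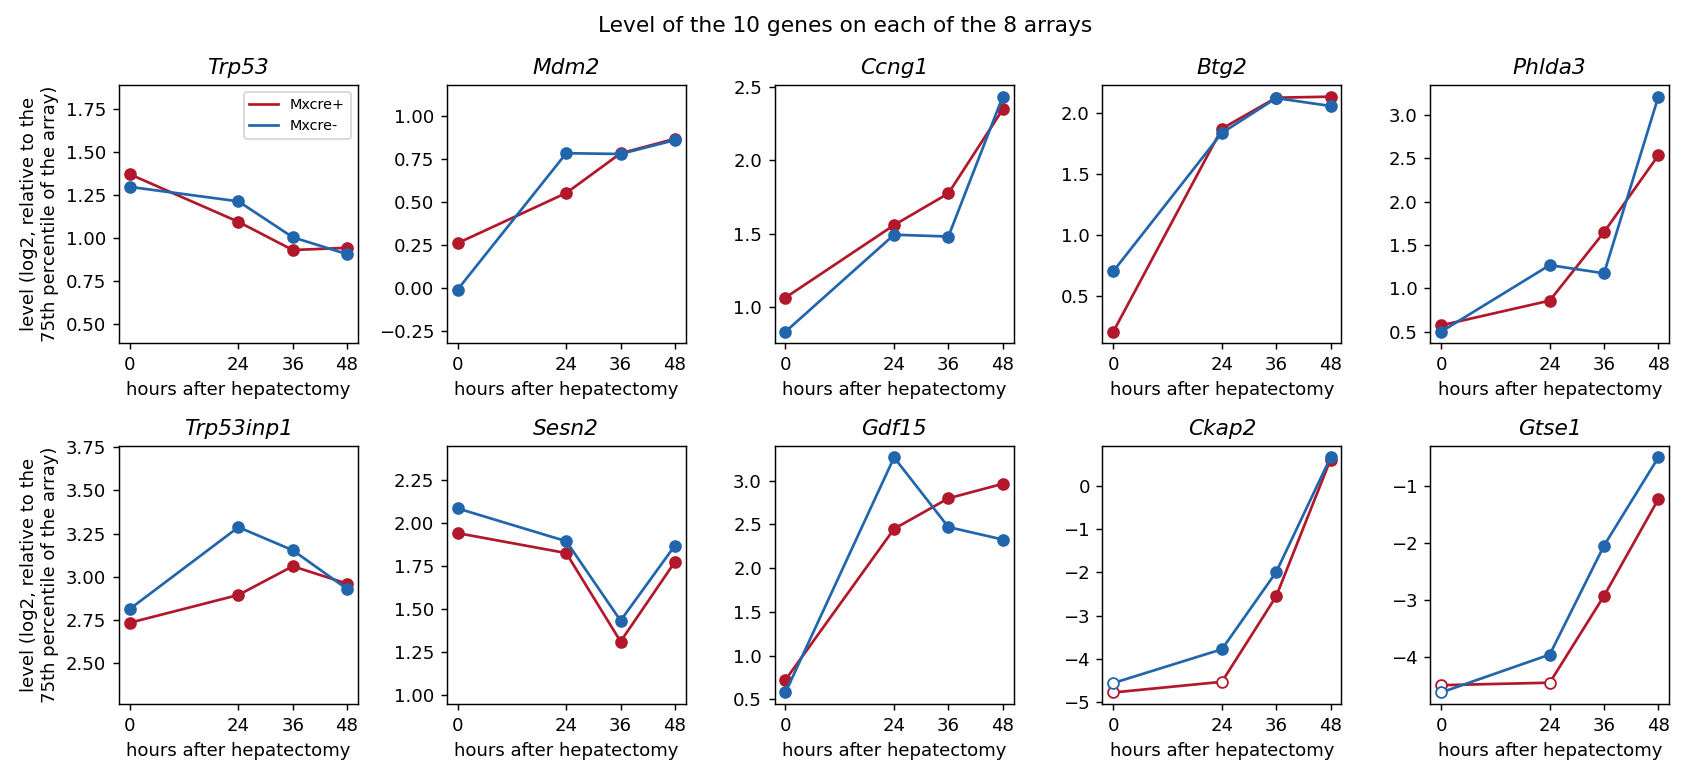
Level of each of the 10 genes (vertical axis, log2, 0 at the array's 75th percentile) against hours after hepatectomy, for Mxcre+ (red) and Mxcre- (blue) livers, with 1 array a point; open points were not well above background. Each panel has its own vertical scale, and the lines of the genotypes cross for Gdf15 and Phlda3, while Ckap2 and Gtse1 lie at or near background until 24 h.

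The regulators were Trp53 and Mdm2. Trp53 had levels of 1.37, 1.09, 0.93 and 0.94 at 0, 24, 36 and 48 h in Mxcre+ livers, against 1.30, 1.21, 1.00 and 0.91 in Mxcre- livers. All later arrays were below both 0 h arrays. The fitted difference from 0 h at 24, 36 and 48 h was -0.18, -0.37 and -0.41 (each ± 0.12 SE, 8 arrays), with limma adjusted p of 0.37, 0.096 and 0.077, so none passed.

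This course held for the brighter of the 2 Trp53 probes only. The other probe was printed on the array in 10 spots whose SD within an array was 0.030 to 0.067. It had levels of -0.37, 0.28, -0.64 and -0.05 in Mxcre+ livers, against -0.43, -0.36, 0.03 and -0.24 in Mxcre- livers. Its difference from 0 h was 0.36 at 24 h, 0.09 at 36 h and 0.26 at 48 h, opposite in sign to the brighter probe, and none passed. The genotype difference of this probe was 0.64 at 24 h and -0.66 at 36 h, while the brighter probe gave -0.12 and -0.07. No direction for Trp53 is therefore given.

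Mdm2 had levels of 0.26, 0.55, 0.78 and 0.87 at the 4 times in Mxcre+ livers, against -0.01, 0.78, 0.78 and 0.86 in Mxcre- livers. Every later array was above both 0 h arrays, and from 36 h on the genotypes lay within 0.01 of each other on this brighter probe. The difference from 0 h at 24, 36 and 48 h was 0.54, 0.65 and 0.74 (each ± 0.16 SE), with limma adjusted p of 0.094, 0.053 and 0.040. Mdm2 rose 1.67-fold at 48 h by this test, a call lost with all genes kept (adjusted p = 0.065) or with the Y-linked signal as a covariate (0.11). Its other probe, also in 10 spots (SD within an array 0.062 to 0.13), gave 0.70, 0.74 and 0.88, with limma adjusted p of 0.054, 0.042 and 0.027 over all probes. On that probe Mxcre+ minus Mxcre- was -0.05 at 36 h and -0.10 at 48 h.

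**Figure D2:**
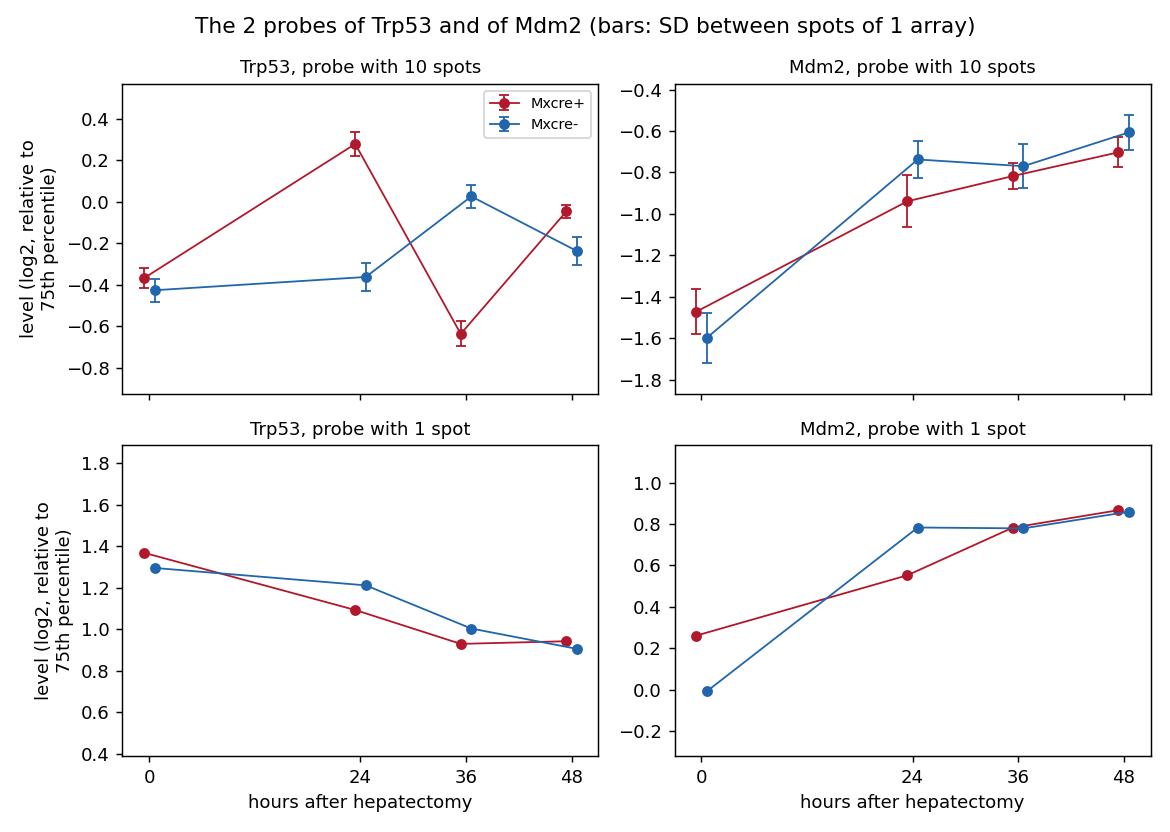
Levels of the 2 probes of Trp53 (left) and of Mdm2 (right) against hours after hepatectomy, in log2 with 0 at the array's 75th percentile, for Mxcre+ (red) and Mxcre- (blue); bars are the SD between the 10 spots of a probe on 1 array, and the probes with 1 spot have none. Both Mdm2 probes rise together, whereas the 10-spot Trp53 probe goes up to 0.28 in Mxcre+ at 24 h and down to -0.64 at 36 h and the other Trp53 probe does not.

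The stretches upstream of Mdm2 and Ccng1, both known p53 targets, are shown here because each holds a match to the p53 half-site, the short palindrome-like sequence bound by a pair of p53 subunits. They are the 250 bases before the annotated start, from RefSeq on build GRCm38.p6, read 5′ to 3′ on the strand of the gene. Capitals mark the p53 half-site and CCAAT boxes (ATTGG on the other strand). Mdm2 lies at chr10:117710759-117711008 and Ccng1 at chr11:40755287-40755536, both on the minus strand.
Mdm2: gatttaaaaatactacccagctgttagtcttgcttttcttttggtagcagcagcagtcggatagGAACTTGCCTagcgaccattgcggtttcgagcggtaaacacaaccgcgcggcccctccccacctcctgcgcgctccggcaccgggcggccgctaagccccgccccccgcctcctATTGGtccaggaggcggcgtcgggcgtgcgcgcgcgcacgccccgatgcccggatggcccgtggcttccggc
Ccng1: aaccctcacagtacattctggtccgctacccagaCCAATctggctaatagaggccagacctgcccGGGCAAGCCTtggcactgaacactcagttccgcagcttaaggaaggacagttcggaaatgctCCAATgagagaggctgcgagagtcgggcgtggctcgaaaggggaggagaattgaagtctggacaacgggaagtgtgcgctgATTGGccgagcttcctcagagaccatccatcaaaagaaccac
The half-site starts 186 bases before the start of Mdm2 and 185 bases before that of Ccng1. Searched on both strands of windows of 300 bases (250 before to 50 after the start), it was found for 5 of the 9 genes with a RefSeq window (Trp53, Mdm2, Ccng1, Ckap2 and Gtse1), and for 9.55% of all 27025 genes with one. CCAAT was found for 8 of the 9 genes and for 41.1% of all genes. TTTGAA, the cell cycle gene homology region, was found for 2 of the 9 (20.2% of all genes), and TGATGNAA, the element read by C/EBP with ATF factors, for 0 (4.51%). A gene counts as holding a motif if any of its windows does. A match of letters is not a site that was shown to be bound.

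Of the targets that act on the cell cycle and cell survival, Ccng1 encodes cyclin G1, which recruits a phosphatase to Mdm2. Ccng1 had levels of 1.06, 1.56, 1.77 and 2.35 at 0, 24, 36 and 48 h in Mxcre+ livers, against 0.83, 1.49, 1.48 and 2.43 in Mxcre- livers. All later arrays lay above both 0 h arrays, and both 48 h arrays above all others. The difference from 0 h was 0.58 ± 0.14 at 24 h (limma adjusted p = 0.072), 0.68 ± 0.14 at 36 h (0.043) and 1.44 ± 0.14 at 48 h (0.012), the last a 2.72-fold rise.

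The 36 h call for Ccng1 was lost with the mean over its probes (adjusted p = 0.12), with all genes kept (0.071), with the Y-linked signal as a covariate (0.093) and with each probe tested on its own (0.053). Its other probe gave -0.26 ± 0.21 at 24 h, 0.23 ± 0.21 at 36 h and 0.80 ± 0.21 at 48 h (SE), and passed at none (limma adjusted p = 0.065 at 48 h). Within slide 2, 48 h exceeded 36 h by 0.76 ± 0.17 on the brighter probe (SE, 4 arrays).

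Btg2 encodes an antiproliferative protein that binds the CCR4-NOT deadenylase and is induced by p53 and, in other settings, by growth factors. Its levels were 0.21, 1.87, 2.12 and 2.13 at the 4 times in Mxcre+ livers, against 0.70, 1.84, 2.12 and 2.06 in Mxcre- livers. On this brightest probe the genotypes lay within 0.08 of each other after surgery, and up to 0.27 apart on the other probes, and every later array was above both 0 h arrays. Btg2 rose 2.63-fold at 24 h, 3.17-fold at 36 h and 3.11-fold at 48 h (log2 1.40, 1.67 and 1.64, each ± 0.18 SE), with limma adjusted p of 0.025, 0.019 and 0.013. Its other 2 probes gave differences from 0 h between 1.62 and 1.98, all past the threshold.

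At 0 h Btg2 was lower by 0.49 in the Mxcre+ liver than in the Mxcre- liver, and its other probes were lower by 0.47 and 0.38. Neutrophil markers (7 of 8 on the array, all above background on these arrays) were also lower there, with a summed linear level of 7.81 in the Mxcre+ liver against 62.9 in the Mxcre- liver. Their part in the difference was not tested.

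Phlda3 encodes a small protein that competes with Akt for membrane lipids and so dampens survival signalling. It had levels of 0.57, 0.86, 1.65 and 2.54 at the 4 times in Mxcre+ livers, against 0.50, 1.27, 1.17 and 3.21 in Mxcre- livers. The 48 h arrays stood above all others in both genotypes. Phlda3 rose 5.05-fold at 48 h (log2 2.34 ± 0.30 SE, limma adjusted p = 0.016), while 0.53 ± 0.30 at 24 h and 0.87 ± 0.30 at 36 h did not pass (0.31 and 0.11). Within slide 2 the 48 h arrays exceeded the 36 h arrays by 1.46 ± 0.37 (SE, 4 arrays). The 48 h call had an adjusted p of 0.055 with the Y-linked signal as a covariate.

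Trp53inp1 encodes a stress protein that helps to activate p53 and takes part in autophagy. Its levels were 2.73, 2.89, 3.06 and 2.96 in Mxcre+ livers, against 2.81, 3.29, 3.15 and 2.93 in Mxcre- livers. It differed from 0 h by 0.32, 0.33 and 0.17 at 24, 36 and 48 h (each ± 0.15 SE), with limma adjusted p of 0.22, 0.17 and 0.44. The other probe gave 0.57, 0.63 and 0.40, which did not pass either. All 6 later arrays were above both 0 h arrays on the brighter probe, by amounts that the test did not separate from the residual spread.

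**Figure D3:**
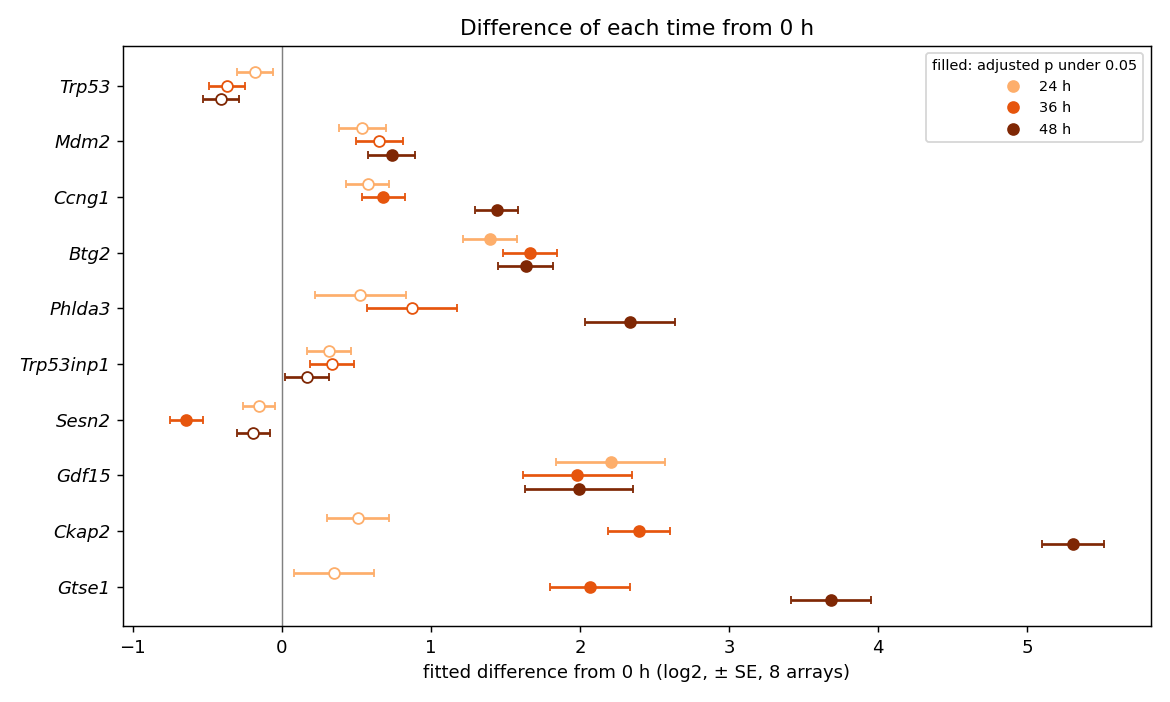
Fitted difference of each time from 0 h for the 10 genes (horizontal axis, log2, with SE bars from the 8 arrays; filled points have an adjusted p under 0.05). Btg2 and Gdf15 lie at a similar distance from 0 h at all 3 times, whereas Ccng1, Phlda3, Ckap2 and Gtse1 lie farthest from it at 48 h (1.44, 2.34, 5.31 and 3.68).

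Of the stress-responsive genes, Gdf15 rose at 24, 36 and 48 h, while Sesn2 passed the test at 36 h only, downwards. Sesn2 encodes sestrin 2, an inhibitor of mTORC1 that senses leucine and is induced by p53 and by the integrated stress response. Its levels were 1.94, 1.82, 1.31 and 1.77 at 0, 24, 36 and 48 h in Mxcre+ livers, against 2.08, 1.89, 1.43 and 1.87 in Mxcre- livers. Both 36 h arrays were the lowest of their genotype. Sesn2 fell by 0.64 on the log2 scale at 36 h (SE 0.11, limma adjusted p = 0.031), while -0.15 at 24 h and -0.19 at 48 h did not pass (0.40 and 0.27). With the Y-linked signal as a covariate or with all genes kept, the 36 h call was lost (adjusted p = 0.064 and 0.056). Within slide 2, 48 h exceeded 36 h by 0.45 ± 0.13 (SE, 4 arrays), and Sesn2 was lower in Mxcre+ than in Mxcre- at all 4 times by 0.07 to 0.14, which did not pass (-0.11 ± 0.08, limma adjusted p = 0.78).

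Gdf15 encodes a secreted stress cytokine of the TGF-beta family, induced by p53 and by the integrated stress response. It had levels of 0.72, 2.45, 2.80 and 2.96 at the 4 times in Mxcre+ livers, against 0.58, 3.26, 2.47 and 2.33 in Mxcre- livers. Every later array was above both 0 h arrays. Gdf15 rose 4.62-fold at 24 h, 3.95-fold at 36 h and 3.99-fold at 48 h (log2 2.21, 1.98 and 1.99, each ± 0.36 SE), with limma adjusted p of 0.034, 0.034 and 0.030. With all genes kept, the adjusted p was 0.054 at 24 h and 0.052 at 36 h. The highest level came at 48 h in Mxcre+ livers and at 24 h in Mxcre- livers.

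The genotype difference of Gdf15 changed sign, with Mxcre+ minus Mxcre- at 0.14, -0.82, 0.33 and 0.64 at 0, 24, 36 and 48 h. Its mean over the times, 0.07 ± 0.26 (SE), did not pass (limma adjusted p = 0.95), and neither did the test of a changed difference after surgery (-0.09 ± 0.66, adjusted p = 0.99). Macrophage markers (7 of 8 on the array, all above background) had a summed linear level of 22.7, 16.1, 29.8 and 27.2 in Mxcre+ livers, against 37.4, 32.6, 17.1 and 28.3 in Mxcre- livers. The neutrophil markers had 7.81, 27.3, 64.5 and 81.3 in Mxcre+ livers, against 62.9, 52.0, 29.6 and 23.5 in Mxcre- livers. Both sets were lower in Mxcre+ at 0 h, where Gdf15 was higher, lower at 24 h and higher at 36 h. At 48 h the neutrophil set was higher in Mxcre+. The macrophage set was then slightly lower in Mxcre+ by its sum, but higher by its mean log2 level (1.38 against 1.19). Their part in the Gdf15 differences was not tested.

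Ckap2 and Gtse1 belong to the mitotic side of the pathway. Ckap2 encodes a spindle microtubule protein, and Gtse1 a microtubule-binding protein that also restrains p53 by carrying it out of the nucleus. The upstream stretches are shown since these were the genes with the widest range over the arrays, 5.44 and 4.11 log2 units. They were taken as above, at chr8:22185820-22186069 on the minus strand for Ckap2 and at chr15:85859457-85859706 on the plus strand for Gtse1, with all 4 searched motifs in capitals.
Ckap2: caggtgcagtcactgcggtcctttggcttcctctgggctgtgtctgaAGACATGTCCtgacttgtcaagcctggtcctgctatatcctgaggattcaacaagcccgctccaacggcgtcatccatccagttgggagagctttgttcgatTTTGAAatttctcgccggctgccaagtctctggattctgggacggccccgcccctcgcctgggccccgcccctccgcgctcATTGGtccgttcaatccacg
Gtse1: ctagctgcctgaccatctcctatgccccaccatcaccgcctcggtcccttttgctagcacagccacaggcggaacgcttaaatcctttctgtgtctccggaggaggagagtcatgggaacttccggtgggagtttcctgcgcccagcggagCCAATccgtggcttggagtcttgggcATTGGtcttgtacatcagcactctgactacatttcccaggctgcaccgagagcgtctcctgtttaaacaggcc
The Ckap2 stretch holds 1 p53 half-site, 1 TTTGAA and 1 CCAAT, while the Gtse1 stretch holds 2 CCAAT and no half-site; the half-site counted above for Gtse1 lies after the start in its other window.

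On its brighter probe Ckap2 had levels of -4.78, -4.53, -2.55 and 0.61 at 0, 24, 36 and 48 h in Mxcre+ livers, against -4.56, -3.78, -1.99 and 0.66 in Mxcre- livers. This probe was not well above background on the 0 h arrays nor on the Mxcre+ array of 24 h. Against the background level, it was at least 4.80-fold higher at 36 h and at least 36.0-fold higher at 48 h than at 0 h. These bounds were not tested. The limma adjusted p of 0.016 and 0.0021 belong to the fitted differences of 2.40 and 5.31, which use the 0 h values below background. Within slide 2, where both times were above background, 48 h exceeded 36 h by 2.91 ± 0.20 (SE, 4 arrays). The bounds set the bright group's mean against the lowest signal among probes well above background, or the dim probe's own where that was higher.

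The other Ckap2 probe had levels of -4.38, -5.19, -3.32 and -0.36 in Mxcre+ livers, against -5.06, -4.93, -2.71 and -0.07 in Mxcre- livers. It was above background on the Mxcre+ array of 0 h, on neither 24 h array and on all 4 later arrays. Its difference from 0 h was 1.70 ± 0.33 at 36 h and 4.51 ± 0.33 at 48 h (log2, SE), with limma adjusted p of 0.043 and 0.0077, so both probes rose.

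Gtse1 had levels of -4.49, -4.45, -2.93 and -1.24 in Mxcre+ livers, against -4.62, -3.96, -2.05 and -0.51 in Mxcre- livers, with the 0 h arrays and the Mxcre+ array of 24 h below background on its 1 probe. It was at least 3.91-fold higher at 36 h and at least 12.0-fold higher at 48 h than at 0 h, bounds that were not tested. The limma adjusted p of 0.022 and 0.0062 belong to the fitted differences of 2.07 and 3.68, which use the 0 h values below background. Within slide 2, 48 h exceeded 36 h by 1.62 ± 0.14 (SE, 4 arrays). After background correction with an offset and quantile scaling, its 36 h difference was 0.32 and did not pass (adjusted p = 0.075).

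Between genotypes, no difference passed the test. Birc5, lower in Mxcre+ at all 4 times, did not pass it either, and 0 of all genes tested did. The test therefore does not show that a genotype difference is absent. Of the genes above background on both arrays of a time, 8 at 0 and 24 h and all 10 at 36 and 48 h, 0 were past 2-fold either way, beside 3.75%, 1.98%, 4.55% and 5.67% of all genes above background on both arrays of 0, 24, 36 and 48 h. In the test over all times 0 of the 10 passed after adjustment. Ckap2 (-0.39 ± 0.15) and Gtse1 (-0.49 ± 0.19) had an unadjusted limma p of 0.045 and 0.0497, as 6.58% of all genes had one under 0.05, and adjusted p of 0.75 each. The other Ckap2 probe gave -0.12 ± 0.23 and the mean over both -0.26, while Gtse1 had -0.16 with the Y-linked signal as a covariate. After background correction with quantile scaling Ckap2 had -0.042 and Gtse1 -0.13. The median over the 8 genes above background on all arrays was -0.06, beside -0.02 over all genes.

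Gtse1 was lower in the Mxcre+ liver by 0.88 at 36 h and 0.73 at 48 h, and both arrays of 0 h were below background. Within slide 2 the difference was -0.80 ± 0.14 (SE, 4 arrays, limma adjusted p = 0.49). The test of a changed difference after surgery gave -0.83 ± 0.25 (adjusted p = 0.68), and 0 of the 10 genes passed it, beside 0.17% of all genes. Ckap2 was lower in the Mxcre+ liver by 0.56 at 36 h and 0.05 at 48 h on its brighter probe, and by 0.61 and 0.29 on the other. At 24 h, where the Mxcre+ array was below background, the brighter Ckap2 probe was at least 1.58-fold lower and Gtse1 at least 1.39-fold lower in Mxcre+.

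At 24 h, 6 of the 8 genes above background on both arrays were lower in the Mxcre+ liver, with a median of -0.17, or 5 with a median of -0.15 where the other Trp53 probe is taken. Of all genes, 47.8% were lower, and their median was 0.01. These are values of 1 pair of arrays with no replicate check. On the brightest probes the genes that were higher at that time were Ccng1 (0.07) and Btg2 (0.03). Farthest apart of the 8 were Gdf15 (-0.82), Phlda3 (-0.41) and Trp53inp1 (-0.39). At 36 and 48 h the 10 genes were split evenly, 5 higher and 5 lower at each, with medians of -0.04 and -0.02. Phlda3 was higher by 0.48 in the Mxcre+ liver at 36 h and lower by 0.68 at 48 h.

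**Figure D4:**
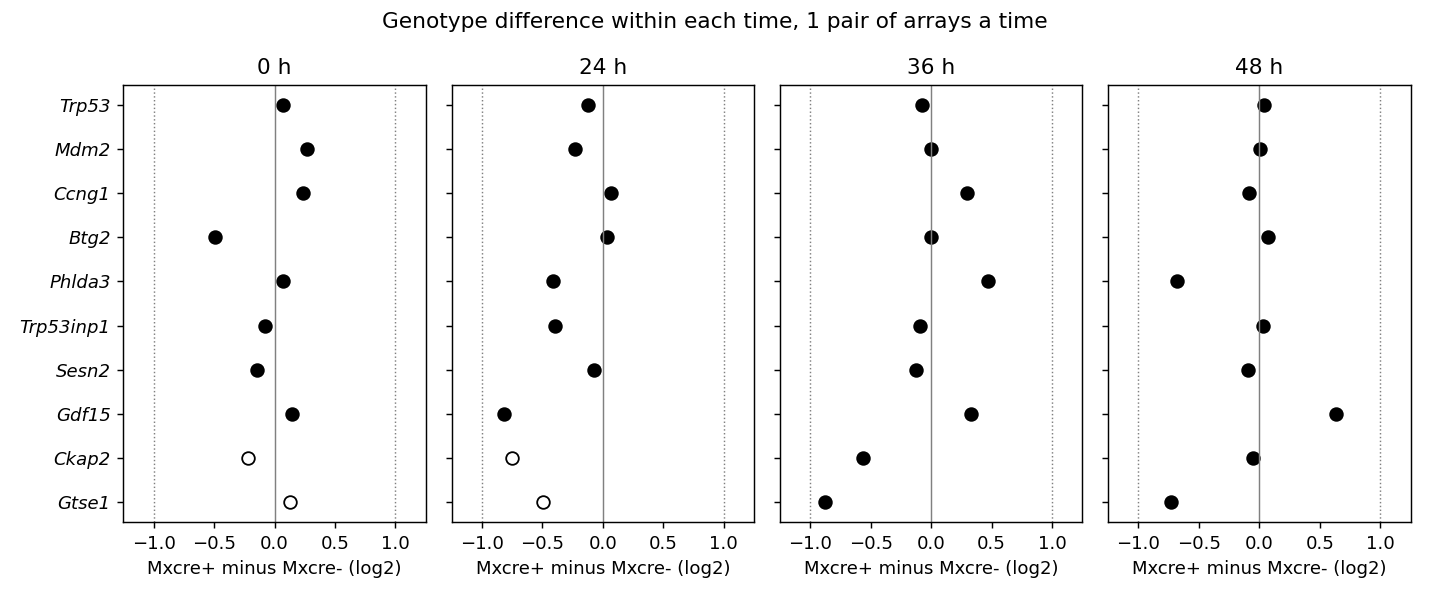
Mxcre+ minus Mxcre- for each of the 10 genes within each time (horizontal axis, log2, 1 pair of arrays a time, no error available); open points had at least 1 array not well above background, and dotted lines mark 2-fold. Of the 8 filled points at 24 h, 6 lie left of 0, and at 36 and 48 h the 10 filled points lie 5 on each side, all inside the dotted lines.

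Related genes were taken from lists of the same pathway and of processes next to it. Their counts over time stand beside the shares over all genes tested. These were 4.43%, 7.83% and 8.12% higher at 24, 36 and 48 h, and 5.26%, 8.64% and 9.6% lower. Of 11 tested p53 targets of cell cycle arrest and repair, 2 were higher at 24 h, 2 at 36 h and 4 at 48 h, and 0 were lower. Cdkn1a, which encodes the cyclin-dependent kinase inhibitor p21, was higher at each time, by 3.70 ± 0.38, 3.04 ± 0.38 and 3.44 ± 0.38 (log2, SE; limma adjusted p = 0.020, 0.021 and 0.013). Its levels were 0.37, 3.43, 3.45 and 3.42 in Mxcre+ livers, against -0.44, 3.89, 2.56 and 3.40 in Mxcre- livers. Plk2, a polo-like kinase, was higher by 0.90 at 24 h and 1.33 at 48 h, Sfn (14-3-3 sigma) by 0.54 at 36 h, and Polk (a translesion polymerase) and Zmat3 (an RNA-binding protein) by 0.96 and 0.81 at 48 h. The median of this list was 0.15, 0.46 and 0.70 at the 3 times.

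Among 12 p53 targets of apoptosis, 1 was higher at 24 h, 2 at 36 h and 4 at 48 h, and 2 and 1 were lower at 36 and 48 h. Tnfrsf10b, a death receptor, was below background at 0 h and at least 2.00-fold higher at 24 h, 2.29-fold at 36 h and 4.04-fold at 48 h. It was the 1 call at 24 h and entered the tests through its later arrays. At 48 h Eda2r, another receptor of that family, was at least 4.93-fold higher, and Aen (a nuclease) and Bax (a pore-forming protein of mitochondria) were higher by 1.37 and 0.88. Eda2r was below background at 0 and 24 h and likewise entered through its later arrays. The calls of Tnfrsf10b and Eda2r therefore use 0 h values below background. At 36 h Aen was higher by 0.99, while Bbc3 (Puma, a BH3-only protein) was lower by 1.28 and Pidd1, which activates caspase 2, by 0.59. Pidd1 was also the gene that was lower at 48 h (-0.62), named here after its value was seen. The list's median was 0.11, 0.45 and 0.49.

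Of 11 tested p53 regulators, 0, 2 and 2 were higher at 24, 36 and 48 h, and 1 was lower at each time. Over all genes tested, 5.26%, 8.64% and 9.6% were lower at these times. A count of 1 gene is not read as a result about the list. Chek1, a checkpoint kinase that acts in S phase and G2, was at least 8.30-fold higher at 36 h and 5.09-fold at 48 h, and Atr, the kinase above it, was higher by 0.74 and 0.87. Chek1 was below background on all arrays of 0 and 24 h and entered the tests through its later arrays. Trp73, a relative of Trp53, was lower by 0.73, 1.09 and 1.21 at the 3 times. Among 15 tested genes of mitosis, 14 were higher at 36 h and 14 at 48 h, with medians of 2.93 and 5.93. Of these genes, Aurkb, Ccnb1, Cdk1, Cenpf, Kif11 and Nusap1 were below background on both 0 h arrays. They entered the tests through later arrays, so their calls, and the medians, use 0 h values below background. At 48 h Cdc20, which activates the anaphase-promoting complex, was 94.7-fold higher, and Cdk1 and Ccnb1, kinase and cyclin of mitotic entry, were at least 42.1-fold and 37.3-fold higher. The remaining gene, Bub1, had -1.03 at 36 h and -0.48 at 48 h, did not pass, and is named after its values were seen. The 1 call of this list at 24 h, Cenpf, came from arrays that were all below background.

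Sesn2 and Gdf15 are also targets of Atf4, the transcription factor of the integrated stress response. Of 10 tested genes of that response, 1 was higher at 24 h, 2 at 36 h and 2 at 48 h, and 0 were lower. Over all genes tested, 4.43%, 7.83% and 8.12% were higher at these times. The count of 1 at 24 h is not read as a result about the list. Asns, asparagine synthetase, was higher by 3.33, 2.10 and 2.20 at the 3 times, and Atf3, a stress-induced transcription factor, by 2.98 at 36 h and 2.41 at 48 h. Of 12 immediate early genes, 4 were higher at each time (Egr1, Fos, Jun and Junb), by 3.45, 2.21, 1.68 and 1.58 at 24 h. Between genotypes, 0 genes passed in any of these 6 lists, where 0 of all genes tested did. The differences of all 15 mitosis genes were below 0 (median -0.47), and those of 9 of the 10 stress response genes above 0 (median 0.40), with 5 and 3 genes at an unadjusted limma p under 0.05. Of all genes tested, 44.5% were above 0 and 6.58% had such a p, and 5 of the mitosis genes were, on the probes used, below background on all 4 arrays of 0 and 24 h.

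Likeness of pattern was measured, for genes ranging over 2 log2 units or more, as the root mean square (RMS) difference between 2 genes over the 8 arrays after each gene's mean was removed. Nearest to Ckap2 were Ube2c (RMS 0.20), Cdca3 (0.21) and Ckap2l (0.31), of which Ube2c is the ubiquitin-conjugating enzyme of mitotic exit. Nearest to Gtse1 were Incenp (0.19), Mtfr2 (0.25) and Cdca8 (0.27). Incenp and Cdca8 are subunits of the chromosomal passenger complex, to which Survivin also belongs. A link of Gtse1 to that complex was not tested. Ckap2 and Gtse1 were above background on 5 of the 8 arrays, so part of each pattern is signal near background. Phlda3 was nearest to Reep4 (0.27), H2ax (0.29) and Ptgr1 (0.29), and Gdf15 to Map3k6 (0.20) and Specc1 (0.23). Among the 10 genes themselves, on their brightest probes, the closest pairs were Trp53 with Sesn2 (0.19) and Mdm2 with Trp53inp1 (0.23), both of narrow range. The other Trp53 probe took another course, so the Trp53 value holds for the brighter probe only. Ckap2 differed from Gtse1 by 0.68. The points share arrays and scaling, so these values describe these 8 arrays.

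Leaving out any 1 array left 2 residual degrees of freedom and fewer calls at each time, over all genes as well. Over all genes tested, calls went from 1370 to between 0 and 519 at 24 h. They went from 2329 to between 0 and 931 at 36 h, and from 2507 to between 84 and 1512 at 48 h. Without either 24 h array 0 of all genes passed at 24 h, and without either 36 h array 0 passed at 36 h. The counts that follow take the 10 genes in both directions, with Ckap2 and Gtse1, which were below background at 0 h, among them. At 24 h, 1 gene of the 10 passed without the Mxcre- array of 0 h and 0 without any other. At 36 h, 3 passed without either 48 h array, 2 without either 24 h array, 1 without the Mxcre- array of 0 h and 0 without the Mxcre+ array of 0 h or either 36 h array. At 48 h, 6 passed without either 24 h array, 5 without either 36 h array, 3 without the Mxcre- array of 0 h or the Mxcre+ array of 48 h, 2 without the Mxcre+ array of 0 h and 1 without the Mxcre- array of 48 h. Over these fits Btg2 stayed between 1.13 and 1.66 at 24 h and Gdf15 between 1.61 and 2.80, and at 48 h Phlda3 between 1.97 and 2.70 and Ccng1 between 1.30 and 1.58. With the Y-linked signal as a covariate, Btg2 and Gdf15 at 24 h had adjusted p of 0.12 each. Among the Mxcre+ arrays without Y-linked signal, those of 0, 36 and 48 h, Btg2 differed from 0 h by 1.91 and 1.92 and Gdf15 by 2.08 and 2.24. These differences cross the slides and hold no 24 h array.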

How the data were processed

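Liver RNA was hybridised to 8 Agilent 1-colour arrays, 1 for each genotype and time. Per the file headers, the deposited intensity is the processed signal of Feature Extraction 10.7.3.1 (10.7 per the submitters' processing notes), already background-subtracted. The authors' deposited value table holds log2 values, whose scaling is not stated (column medians 5.51) and which correlated with their own array at r of at least 0.999. It served as an alternative. Each array had 43379 spots, 60.2% to 66.0% of them well above background. The number of arrays limits the precision.

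For the main values, the array's 75th percentile was subtracted from the log2 processed signal. Control spots and outlier flags were left out. The brightest probe stood for a gene, and genes well above background on at least 2 arrays were tested (14142). limma 3.58.1 in R 4.3.3 fitted time and genotype (3 residual degrees of freedom), and then a genotype by after-surgery term (2). The fits were also run on simulated data with independent noise and no slide or Y-linked effect. That run does not check the calls against such effects. The background alternative used median in place of mean signals.

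The 10 genes and the lists were chosen with earlier results of these data known. All 10 genes are named, up to 4 genes per list and comparison by size of difference among those past the threshold (others are marked), and the 3 genes nearest in pattern to each gene ranging over 2 log2 units, 1 of which is not reported here.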

Additional observations from a re-analysis of the deposited data

How the results depend on the processing

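Each group had 1 array, so there were no replicate numbers to pair. The fit reported compares the genotypes within each time, and so pairs the Mxcre+ and Mxcre- arrays by time. Between genotypes, 0 of the 10 genes, and 0 of all genes tested, passed under every alternative run. At 24 h, 2 of the 10 genes passed in the fit reported, 1 with all genes kept, 0 with the Y-linked covariate and 0 within slide 1. Within slide 1, 0 of all genes tested passed at 24 h. At 36 h, 6 passed (Ccng1, Btg2, Gdf15, Ckap2 and Gtse1 upwards, Sesn2 downwards) and 3 with all genes kept. Ckap2 and Gtse1 were below background at 0 h and entered the tests through their later arrays. Leaving out 1 array gave 0 to 1 genes at 24 h, 0 to 3 at 36 h and 1 to 6 at 48 h, with 2 residual degrees of freedom. For the changed difference it gave 0, and without a 0 h array that term could not be estimated.

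Some differences turned in sign, and the cause was not tested. With the mean over probes, the genotype difference was 0.018 for Trp53 and -0.021 for Mdm2, Trp53 had 0.088 at 24 h, and the changed difference of Trp53inp1 was 0.059. With another probe, the genotype difference was 0.057 for Trp53, -0.055 for Mdm2, -0.083 for Ccng1 and 0.066 for Btg2. Other probes gave 0.36, 0.092 and 0.26 for Trp53 at 24, 36 and 48 h, -0.26 for Ccng1 and -0.34 for Ckap2 at 24 h, and 0.19 for the changed difference of Trp53inp1. With the Y-linked covariate, Gdf15 had -0.32 between genotypes and Gtse1 -0.26 at 24 h. Within a slide, the genotype difference was -0.34 for Gdf15 (slide 1) and 0.040 for Btg2 (slide 2). Without 1 array, the genotype difference ranged from -0.073 to 0.093 for Mdm2, -0.15 to 0.038 for Btg2, -0.052 to 0.012 for Trp53, -0.11 to 0.37 for Gdf15 and -0.34 to 0.046 for Phlda3. Gtse1 at 24 h ranged from -0.061 to 0.77, and the changed difference from -0.16 to 0.049 for Trp53inp1 and -0.39 to 0.34 for Gdf15. None of these values passed the test.

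Over all genes, calls on both sides together were 1370, 2329 and 2507 at 24, 36 and 48 h. They were 580, 990 and 1573 with all genes kept and 1, 1033 and 1195 with the Y-linked covariate. At 24 h they were 2152 after background correction with quantile scaling and 2145 with an intensity trend. Leaving out 1 array gave 0 to 519, 0 to 931 and 84 to 1512. Calls for the changed difference were 24 in the fit reported, 4 after background correction, 44 over single probes and 0 with the Y-linked covariate or without 1 array. Signal near background limits Ckap2 and Gtse1 at 0 and 24 h.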
